A study of Mus musculus with 9 samples.

Results

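The genes described here are 10 genes of immature olfactory sensory neurons and their growth cones: Gap43, Gng8, Dpysl5, Dpysl3, Crmp1, Ncam1, Dclk1, Dcx, Stmn2 and Tubb3. They were chosen by gene symbol, and each is represented by its brightest probe over all arrays, so 10 of 19084 named genes on the array are described. RNA came from the olfactory mucosa of male C57BL/6 mice aged 6 to 8 weeks, and 9 samples were measured on 1-colour arrays, 3 per group. Control mice were given saline over 2 weeks. WK2 mice were given dexamethasone, a synthetic glucocorticoid, every day over 2 weeks at an intraperitoneal dose of 1 mg/kg. D1 mice were given dexamethasone over 1 day, with no separate dose stated, so the length of injection also differs between D1 and its control. There were 9 mice per group, of which 3 samples with the best expression of olfactory marker protein were hybridised; the bearing of this selection on genes that vary with that marker was not tested. No label says that replicates are separate animals, so p-values reflect only the spread among these samples, and that spread may be technical.

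Olfactory sensory neurons are replaced throughout life from basal stem cells of the epithelium. A newly formed neuron first extends an axon towards the olfactory bulb and expresses growth cone genes such as Gap43 and Gng8, and it later exchanges them for Omp and the odorant transduction machinery. The collapsin response mediator proteins, encoded by Crmp1 and the Dpysl genes, are cytosolic proteins that carry semaphorin signals to the cytoskeleton of the growth cone. Dcx, Dclk1, Stmn2 and Tubb3 encode microtubule-associated or microtubule-building proteins, and Ncam1 encodes an adhesion molecule of axons. The array measured whole mucosa, in which fewer immature neurons and less RNA per neuron cannot be told apart.

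Arrays had median probe intensities of 1202 to 1447, and Pearson's r across features was 0.977 to 0.993 between arrays of a group. WK2 replicate 3 stood farthest from the rest, with a median r of 0.971 with the other arrays against 0.978 to 0.989 for the others. Its mean intensity over features was also the highest, 9407 beside 7738 to 8189 on the other arrays, though its median lay within their range. The bearing of this on bright genes and on summed intensities was not tested. An array-weight fit gave control replicate 2 and WK2 replicate 3 the lowest weights, 0.233 and 0.265, where the other 7 arrays had 0.847 to 2.50. Several member differences and correlations that change markedly without WK2 replicate 3 or control replicate 2 are given also without that array. Defining markers of the tissue were bright, with Omp at an intensity of 337461 ± 64145 (SD, n = 3) and Cyp2g1, a sustentacular cell enzyme, at 425252 ± 48522 in control. Precision is limited by the number of arrays.

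Promoter sequence is shown for Dpysl5 and Crmp1, the members with the largest differences after 2 weeks, because both lay lower on the same arrays. RefSeq's table for build GRCm38.p6 holds 9 promoter windows of 6 members, each from 250 bases before to 50 after a transcription start. The capitals mark CCCNNGGG, the core of the site bound by EBF factors of olfactory neurons, in Dpysl5 (chr5:30711314-30711613, plus strand), and GGGCGG or its reverse complement in Crmp1 (chr5:37241808-37242107, plus strand, the first of its 2 listed starts).
Dpysl5: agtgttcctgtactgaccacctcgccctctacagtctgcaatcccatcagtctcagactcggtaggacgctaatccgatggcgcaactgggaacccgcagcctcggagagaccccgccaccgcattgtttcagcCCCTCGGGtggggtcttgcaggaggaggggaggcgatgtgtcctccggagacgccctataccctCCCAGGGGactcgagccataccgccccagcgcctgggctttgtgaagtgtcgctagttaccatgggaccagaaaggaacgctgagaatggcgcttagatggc
Crmp1: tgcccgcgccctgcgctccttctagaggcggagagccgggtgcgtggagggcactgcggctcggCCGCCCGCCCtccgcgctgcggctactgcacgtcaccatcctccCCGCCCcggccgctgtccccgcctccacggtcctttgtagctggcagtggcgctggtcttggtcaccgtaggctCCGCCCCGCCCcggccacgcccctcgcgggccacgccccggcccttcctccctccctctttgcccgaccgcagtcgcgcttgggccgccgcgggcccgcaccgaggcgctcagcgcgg

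CCCNNGGG, which reads the same on both strands, occurs in the Dpysl5 window with its first base at positions -116 and -52 from the start, and in no other of the 9 windows. It occurs in 13.7% of all 32851 promoter windows of the same length. GGGCGG, searched on both strands, occurs 5 times in the printed Crmp1 window, from -186 to -63, with overlapping matches at -186 and -182 and at -68 and -63. It is found in 5 of the 9 member windows, belonging to 4 of the 6 members (Dpysl5, Crmp1, Gng8 and Tubb3), and in 35.7% of all windows. ACANNNTGT, a spaced palindrome of glucocorticoid receptor sites, occurs in 0 of the 9 windows and in 6.85% of all windows. The printed Crmp1 window is 77% G or C, that of Dpysl5 61.0%, and the median over all windows is 52.7%. These matches describe the letters of the windows and say nothing of binding.

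WK2 was set against control to find the changes after 2 weeks of treatment. Dpysl5 fell, and it was the 1 member of 10 that passed an adjusted p of 0.05, where 1.61% of all 23631 features passed. Crmp1, Ncam1 and Dclk1 were lower on every WK2 array than on every control and D1 array but did not pass the test. Gap43 also lay lower on every WK2 array, by a smaller amount. Dcx, Stmn2, Tubb3, Dpysl3 and Gng8 overlapped between the groups.

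**Figure D1:**
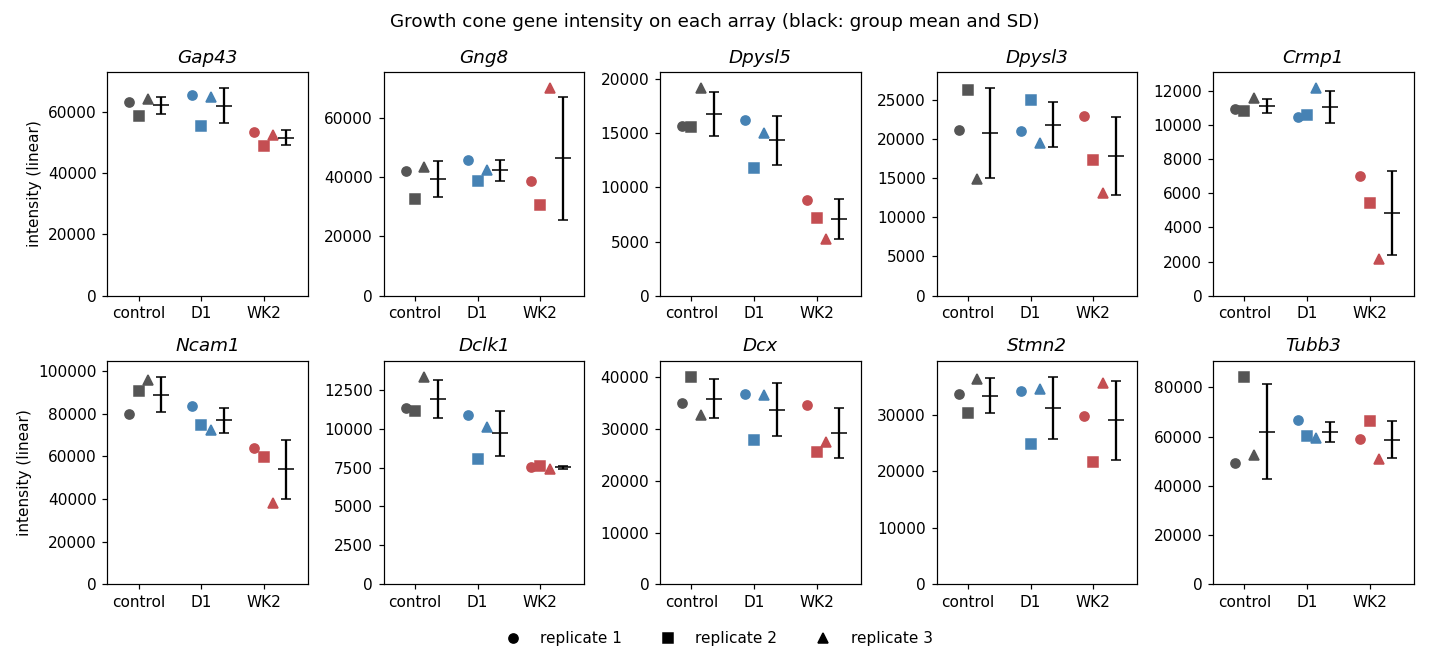
Intensity (linear scale from 0) of each growth cone gene on the 9 arrays by group, with replicate numbers as symbols and the group mean ± SD in black. The WK2 points lie below all other points for Gap43, Dpysl5, Crmp1, Ncam1 and Dclk1, while the groups overlap for the other 5 genes.

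Dpysl5 encodes a collapsin response mediator of growing neurites. Its intensity was 15626, 15551 and 19132 on the control arrays, 16188, 11819 and 15019 on the D1 arrays, and 8856, 7212 and 5188 on the WK2 arrays. The WK2 values lay below all others, and control and D1 values overlapped. Its mean was 16770 ± 2046 (SD, n = 3) in control and 7085 ± 1838 in WK2, a 2.40-fold decrease (log2 -1.26 ± 0.21 SE, adjusted p = 0.0398, limma). The log2 difference ran from -1.44 to -1.06 when single arrays were left out, but the call held for 1 omission, that of WK2 replicate 1 (adjusted p = 0.0331). It ended when any other array was left out, D1 arrays included, with adjusted p from 0.0645 to 0.148. It also ended when the model held control and WK2 arrays without D1 (adjusted p = 0.112).

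Crmp1, a member of the same protein family, had the largest difference of the 10 genes over all 9 arrays. Without WK2 replicate 3, Dpysl5 had a larger one (-1.06 beside -0.85 for Crmp1). The intensity of Crmp1 was 10934, 10840 and 11594 in control, 10462, 10564 and 12138 in D1, and 6993, 5416 and 2167 in WK2. Control and D1 arrays were close together, and the WK2 arrays were both lower and far apart, with WK2 replicate 3 the lowest. The log2 difference of WK2 from control was -1.34 ± 0.35 (SE), which missed the threshold (adjusted p = 0.0631, limma). It was -0.85 without WK2 replicate 3 (adjusted p = 0.0800) and passed without WK2 replicate 1 (-1.68, adjusted p = 0.0365).

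Dpysl3, also of this family, was spread widely within groups. Its intensity was 21100, 26230 and 14824 in control, 20964, 24993 and 19416 in D1, and 22952, 17316 and 13083 in WK2. The 3 groups overlapped, and the log2 difference of WK2 from control was -0.22, with a 95% interval from -0.78 to 0.34. It was -0.03 without control replicate 2 and -0.02 without WK2 replicate 3. It turned to 0.17 without control replicate 2 and WK2 replicate 3 together and to 0.19 with array weights. The other family members on the array, Dpysl2 and Dpysl4, stood at log2 differences of -0.56 ± 0.21 (adjusted p = 0.119) and -0.38 ± 0.17 (adjusted p = 0.178) and did not pass; both were singled out after their values were seen.

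Ncam1, the neural cell adhesion molecule, was at 79750, 90681 and 95919 in control, 83543, 74456 and 72414 in D1, and 63829, 59873 and 38228 in WK2. Every WK2 array lay below every other array, and WK2 replicate 3 was again the lowest. The log2 difference of WK2 from control was -0.75 ± 0.20 (SE, adjusted p = 0.0659, limma), and -0.52 without WK2 replicate 3. Gap43, a membrane phosphoprotein that is the standard marker of immature olfactory neurons, was at 63284, 58727 and 64074 in control, 65467, 55491 and 64938 in D1, and 53379, 48872 and 52384 in WK2. Its WK2 values were also the lowest of all, by a narrow gap to D1 replicate 2. The log2 difference of WK2 from control was -0.27 ± 0.13 (SE), with a 95% interval from -0.57 to 0.03 (adjusted p = 0.207).

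Dclk1, a doublecortin-like kinase that binds microtubules, was at 11314, 11118 and 13295 in control, 10882, 8069 and 10110 in D1, and 7546, 7595 and 7373 in WK2. Its WK2 arrays were close together and the lowest, and its D1 arrays lay below all control arrays. The log2 difference of WK2 from control was -0.66 ± 0.15 (SE, adjusted p = 0.0571, limma). Dcx, doublecortin itself, was at 34943, 39956 and 32577 in control, 36792, 27795 and 36486 in D1, and 34652, 25480 and 27464 in WK2. One WK2 array lay within the control range, and the difference was -0.30, with a 95% interval from -0.70 to 0.09.

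Stmn2, a stathmin that promotes microtubule turnover in growth cones, was at 33573, 30195 and 36312 in control, 34152, 24839 and 34434 in D1, and 29734, 21556 and 35577 in WK2. The groups overlapped, with a log2 difference of WK2 from control of -0.23 and a 95% interval from -0.70 to 0.24. Tubb3, the neuronal beta-tubulin, was at 49458, 84123 and 52416 in control, 66726, 60099 and 59257 in D1, and 59096, 66297 and 51060 in WK2. Control replicate 2 held the highest value of the 9, and the difference of -0.04 turned to 0.20 without that array. Gng8, a G protein gamma subunit of immature olfactory and vomeronasal neurons, was at 42252, 32586 and 43434 in control, 45762, 38687 and 42400 in D1, and 38888, 30539 and 69978 in WK2. WK2 replicate 3 was its highest array, where Crmp1 and Ncam1 were lowest, and the difference of 0.16 turned to -0.18 without it.

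All members but Gng8 had a WK2 mean below control, 9 of 10, where 37.3% of all features did. The median log2 difference of the 10 was -0.28, beside 0.14 over all features, and median centring of the arrays moved each member's difference by -0.10. On the lower side 5 members did not overlap with control, where 13.8% of features did so, and these same 5 lay below all control and D1 arrays, as did 9.05% of features. At an unadjusted p under 0.05, 4 members were lower, beside 12.4% of features. The members were chosen with results of these data known, so these counts describe them and are no test.

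**Figure D2:**
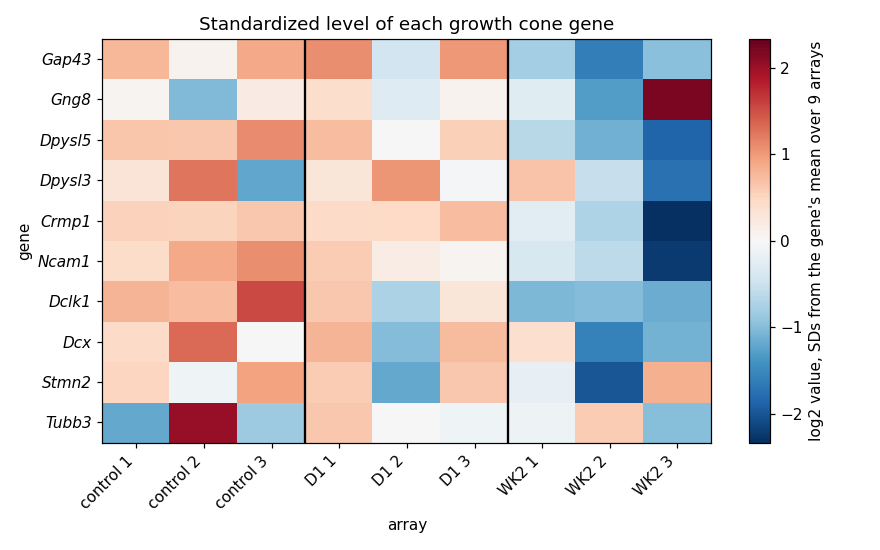
Log2 value of each gene on each array as standard deviations from that gene's own mean over the 9 arrays (colour), with arrays in columns and vertical lines between groups. Crmp1, Ncam1 and Dpysl5 are lowest on WK2 replicate 3, where Gng8 is highest, and Tubb3 is highest on control replicate 2.

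D1 was set against control to find the changes after 1 day of treatment. No member passed the limma test, as 0% of all features did, and 473 features (2.00%) but 0 members were at an unadjusted p under 0.05. Median log2 differences were -0.05 over the members and 0.03 over all features. The lowest difference was that of Dclk1, at -0.30 ± 0.15 (SE), whose D1 arrays did not overlap with control, as in 5.19% of features on the lower side. That held for its brightest probe only. On its dimmer probes D1 overlapped with control, at -0.07 ± 0.18 and -0.14 ± 0.19. Dpysl5 lay at -0.23, with a 95% interval from -0.71 to 0.25, and Ncam1 at -0.21, from -0.65 to 0.24. Gap43 stood at -0.005, from -0.30 to 0.30, and Crmp1 at -0.01, from -0.78 to 0.76. The direction of D1 against control turned under at least 1 alternative for 7 of the 10 members, all but Dpysl5, Ncam1 and Dclk1.

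The comparison of WK2 with D1 tests whether the short and the long treatment differed in level, and it shares its WK2 arrays with the first comparison. No member passed the limma test, and 0.0931% of all features did (22). At an unadjusted p under 0.05, 4 members were lower in WK2, beside 10.2% of features. Crmp1 was lower in WK2 by a log2 difference of -1.33 ± 0.35 (SE, adjusted p = 0.139, limma) and Dpysl5 by -1.03 ± 0.21 (adjusted p = 0.116). Ncam1 stood at -0.54 (95% interval -0.99 to -0.09), Dclk1 at -0.35 (-0.70 to -0.01) and Gap43 at -0.26 (-0.56 to 0.04). With single arrays left out, Crmp1 ran from -1.67 to -0.84, Dpysl5 from -1.21 to -0.83 and Ncam1 from -0.68 to -0.31. The same 5 members did not overlap between WK2 and D1, where 12.6% of features lay lower without overlap. On the brightest probes, control and D1 arrays overlapped for 9 members, all but Dclk1. The order of group means, from high to low, was control, D1 and WK2 for Gap43, Dpysl5, Crmp1, Ncam1, Dclk1, Dcx and Stmn2. Control and D1 means were nearly equal for Gap43 (62028 and 61965) and Crmp1 (11123 and 11055). The share of all features in this order was not counted, and a graded change was not tested.

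**Figure D3:**
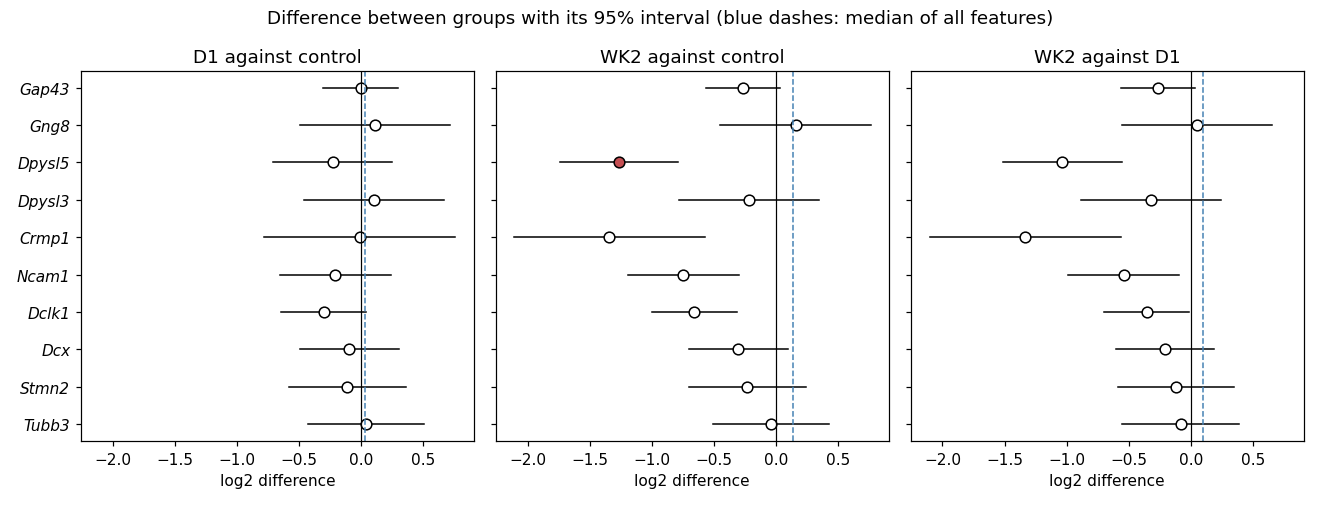
Log2 difference of each growth cone gene in the 3 comparisons (points) with its 95% interval from the limma fit (lines), filled where the adjusted p was under 0.05. The blue dashes mark the median of all features, and the 1 filled point is Dpysl5 in WK2 against control, at -1.26.

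Probes of the same gene gave different answers for Dclk1 and near-equal ones for Crmp1. Of the 10 members, 6 had 1 probe, 3 had 2 and Dclk1 had 3. The dimmer Crmp1 probe read 2671, 4566 and 2468 in control, 2768, 2738 and 2935 in D1, and 1949, 1598 and 720 in WK2. It again placed all WK2 arrays lowest and WK2 replicate 3 below the rest, with a log2 difference of -1.21 ± 0.34 (SE) beside -1.34 on the brighter probe. The 2 dimmer Dclk1 probes gave -0.22 ± 0.18 and -0.50 ± 0.19 beside -0.66 on the brightest. On the first of them WK2 read 7644, 5960 and 7734 and overlapped with control at 8522, 7269 and 9014. On the second, WK2 read 4451, 3564 and 4706, below the control values of 5136 to 6719, but D1 replicate 2 at 4250 lay among the WK2 values. The 2 Dcx probes gave -0.30 and -0.37, and the dimmer probe read 32322, 25069 and 25039 in WK2, below all 3 control values of 34399 to 35771. On this dimmer Dcx probe the D1 values of 31253, 25910 and 32163 also lay below control, unlike on the brighter one. The dimmer Dpysl3 probe, at 372 to 618 on all arrays, gave 0.05.

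**Figure D4:**
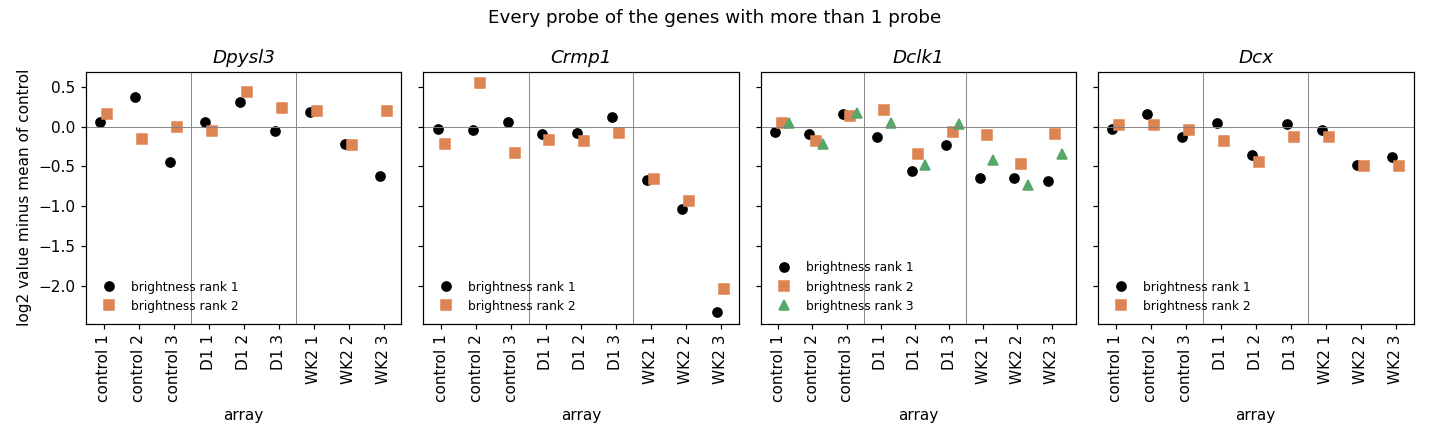
Log2 value of every probe of the 4 genes with more than 1 probe on each array, minus the mean of the 3 control arrays, with symbols for the order of brightness. Both Crmp1 probes drop on the WK2 arrays, while the Dclk1 probe of brightness rank 2 stays closer to 0 there than rank 1.

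Members did not vary as 1 block. Over the 9 arrays Pearson's r of log2 values was 0.95 between Dpysl5 and Ncam1, 0.94 between Crmp1 and Ncam1 and 0.93 between Dpysl5 and Crmp1. With group means removed these values were 0.85, 0.89 and 0.81. Without WK2 replicate 3, an omission chosen after seeing the data, they were 0.63, 0.10 and 0.58 over 8 arrays, so the likeness of Crmp1 and Ncam1 within groups rested on that array. Gap43 went with Stmn2 (0.84 with group means removed, 0.96 without WK2 replicate 3) and with Dclk1 (0.81 and 0.83). Its values with Crmp1 were 0.02 and 0.56. Gng8 went with Stmn2 (0.84 and 0.83). With group means removed, Gng8 ran opposite to Crmp1 (-0.79) and Ncam1 (-0.76), but the sign turned without WK2 replicate 3 (0.57 and 0.24). With group means kept, r over the 9 arrays was -0.55 and -0.56, and it also turned without WK2 replicate 3 (0.64 and 0.41). These are descriptions over arrays that share an RNA sample for every gene.

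Outside the members, the 5 named genes most like their mean standardized profile over the 9 arrays, among genes brighter than the median, were Klc4, a kinesin light chain (r = 0.992), Rtl6 (0.991), Atp6v0e2, a proton pump subunit (0.988), Mapk6, a protein kinase (0.987), and Clic3 (0.987). Of 11001 genes searched, 419 (3.81%, members left out) had an r over 0.9. Mapk6 was at 36214 ± 2375 (SD, n = 3) in control, 32691 ± 6412 in D1 and 19519 ± 3470 in WK2. Klc4 was at 9153 ± 170 in control and 6421 ± 657 in WK2, a log2 difference of -0.51. These genes were chosen for this pattern over the same arrays, so their levels are a description with no test.

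Other genes of immature neurons and of the growing axon were compared between WK2 and control. Over all features, the background for this and the following lists, 1.61% passed, 37.3% lay below control and the median was 0.14. Of 22 further immature neuron genes 1 rose and 0 fell, 7 lay above and 15 below control, and their median log2 difference was -0.21. Tubb2a, a beta-tubulin, rose from 16751 ± 5004 (SD, n = 3) in control to 39714 ± 1377 in WK2 (log2 1.29 ± 0.21 SE, adjusted p = 0.0398, limma). Rtn1, a reticulon of neurons, stood at -0.73 (adjusted p = 0.0744) and Tuba1a, an alpha-tubulin of young neurons, at 0.43 (adjusted p = 0.102). Of 21 genes of axonal microtubules, Tubb2a again was the 1 that rose and 0 fell, with a median of -0.11. Kif21b, a kinesin, stood at -1.0 (adjusted p = 0.0679) and Pafah1b1, the lissencephaly gene product, at 0.52 (adjusted p = 0.0731).

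Of 24 measured genes of the semaphorin and collapsin response mediator pathway, 1 fell and 0 rose, with a median of -0.08. Plxna1, a plexin that transmits semaphorin signals, fell from 22470 ± 1502 (SD, n = 3) to 8131 ± 2941 (log2 -1.53 ± 0.26 SE, adjusted p = 0.0398, limma), with -0.42 on its dimmer probe. The kinase gene Fyn stood at -0.66 (adjusted p = 0.0648) and Mical1, an actin oxidizing enzyme downstream of plexins, at -0.65 (adjusted p = 0.0690). Of 15 adhesion partners and relatives of Ncam1, 1 fell and 0 rose, with a median of 0.01. Nfasc, neurofascin, fell from 3594 ± 549 to 1253 ± 183 (log2 -1.48 ± 0.23, adjusted p = 0.0390), with -0.39 on its dimmer probe. Fgfr1 stood at -0.67 (adjusted p = 0.0579) and Chl1, an adhesion molecule of axons, at 1.18 (adjusted p = 0.0629).

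The calls of Tubb2a, Plxna1 and Nfasc ended in 7, 8 and 7 of the 9 omissions of an array (adjusted p 0.0624 to 0.148). All held without WK2 replicate 1, that of Tubb2a also without control replicate 2 and that of Nfasc also without D1 replicate 2. In D1 against control, 0 genes of these 4 lists passed, with medians from -0.07 to 0.03.

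**Figure D5:**
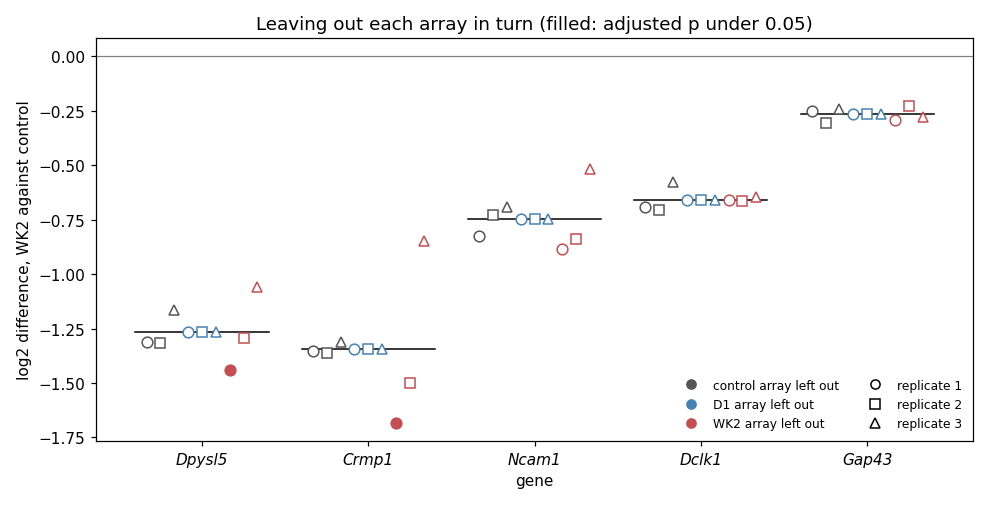
Log2 difference of WK2 from control for the 5 genes whose WK2 arrays lay lowest, each time with 1 array left out (colour: group of that array, symbol: its replicate number), and black lines for all 9 arrays. Filled symbols have an adjusted p under 0.05; they are Dpysl5 at -1.44 and Crmp1 at -1.68, both without WK2 replicate 1.

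Markers of the neighbouring stages of the neuronal lineage were mixed. In WK2 against control, 37.3% of all features lay below control, and the median over all features was 0.14. Of 22 mature olfactory neuron genes 0 passed in WK2 against control, 12 lay above and 10 below, with a median of 0.02 and a summed intensity of 2115635 to 2299907 in control and 2352984 to 2581588 in WK2. Omp, on which samples were selected, stood at 0.60 ± 0.19 (SE, adjusted p = 0.0854, limma) and Gng13, a G protein subunit of odorant signalling, at 0.52 (adjusted p = 0.0779). Omp alone averaged 337461 in control and 506735 in WK2, a large part of the difference between the sums. Adcy3, the adenylate cyclase of odorant transduction, stood at -0.58 (adjusted p = 0.132). Ebf2 and Lhx2, transcription factors of olfactory neurons, stood at -0.78 (adjusted p = 0.0593) and -0.58 (adjusted p = 0.0737). Of 13 measured genes of globose basal cells and neuronal precursors 1 fell, with a median of -0.05 and a summed intensity of 165188 to 184932 in control and 149819 to 161256 in WK2. Kit, a receptor kinase of olfactory progenitors, fell from 4691 ± 733 (SD, n = 3) to 2149 ± 368 (log2 -1.11 ± 0.17, adjusted p = 0.0390). Its call ended in 8 of 9 omissions of an array, all but that of WK2 replicate 1. Mki67, a proliferation marker, stood at -0.74 (adjusted p = 0.0685), with 0.21 on its dimmer probe. Neurog1, a proneural transcription factor, stood at 0.72 (adjusted p = 0.122), with -0.11 on its dimmer probe.

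Markers of other cells of the mucosa were compared in the same way, beside a median of 0.14 and 1.61% passing over all features. Of 8 genes of vomeronasal and other chemosensory neurons 1 fell, with a median of -0.27. Their summed intensity was 92413 to 111565 in control, 78613 to 100873 in D1 and 73320, 74102 and 46650 on the WK2 arrays, lowest on WK2 replicate 3 as for Crmp1, Ncam1 and Dpysl5. Trpc2, the channel of vomeronasal transduction, fell from 1004 ± 54.7 (SD, n = 3) to 417 ± 170 (log2 -1.24 ± 0.26 SE, adjusted p = 0.0493, limma), a call that ended in 8 of 9 omissions of an array, all but that of WK2 replicate 1. Gnao1 and Gnai2, G protein subunits of vomeronasal neurons, stood at -0.71 (adjusted p = 0.0828) and -0.77 (adjusted p = 0.0876). The dimmer probes of Gnao1 gave -0.08 and -0.90. Most of the summed intensity was that of Gnao1, at 81116, 71200 and 92921 in control and 58998, 57384 and 35985 in WK2. The part of these cells in the differences of the members was not tested.

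Of 8 measured ensheathing glia genes 1 fell, with a median of -0.24 and a summed intensity of 54717 to 61771 in control and 46637 to 76383 in WK2. Foxd3, a transcription factor of the glial lineage, fell from 961 ± 85.0 (SD, n = 3) to 340 ± 82.1 (log2 -1.39 ± 0.18 SE, adjusted p = 0.0267, limma), and the call held without WK2 replicate 1 or D1 replicate 2 and ended in the other 7 omissions. Fabp7 stood at -0.50 (adjusted p = 0.0943) and Ngfr, the neurotrophin receptor of these glia, at 0.48 (adjusted p = 0.237). Of 13 measured genes of trigeminal and autonomic neurons 0 passed, with a median of 0.18 and sums of 81506 to 103133 in control and 81126 to 131829 in WK2. Their 3 smallest p-values were those of Trpm8 (0.36), Prph (-0.32) and Dbh (0.56). Of 7 horizontal basal cell genes 0 passed, with a median of 0.24 and sums of 37356 to 42953 in control and 49427 to 50870 in WK2. Krt14, Itgb4 and Krt5 stood at 0.66, -0.85 and 0.60. Krt14 alone averaged 16766 in control and 26756 in WK2, a large part of the difference between the sums. Of 7 measured sustentacular genes 0 passed, with a median of -0.09 and sums of 713625 to 837385 in control and 911675 to 1042431 in WK2. Slc2a1, Hes1 and Cyp2g1 stood at -0.69, -0.85 and 0.54. Cyp2g1 alone averaged 425252 in control and 619114 in WK2, so the higher WK2 sums rest on this bright gene. No marker in these cell type lists was under an intensity of 50 on all arrays. In D1 against control and in WK2 against D1, 0 genes of these lists passed, and whether these cells bear on the members' levels was not tested.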

How the data were processed

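The values deposited by the authors are linear intensity values of 26423 probes on 9 arrays, of which 8 to 18 per array were below 0, as after background subtraction. Per the labels' protocols, 1 µg of total RNA with an integrity number of at least 7 was amplified and labelled with Cy5. For the scanner, background correction and normalization, the method is not given in the sources used here. Gene names came from the platform annotation, with RefSeq's gene table: 21876 had 1 gene symbol, 0 several and 4547 none, and gene IDs of 21825 were found in RefSeq. The brightest probe stood for a gene, and unnamed probes were kept, giving 23631 features. Values were tested as log2(intensity + 50), which understates changes of dim genes, in 1 limma 3.58.1 model over all 9 arrays (R 4.3.3), with Benjamini-Hochberg adjustment over all features within each of 3 comparisons. Adjusted p-values are from this model, except where arrays are said to be left out or an alternative is named. With 3 arrays against 3, an exact permutation test cannot give a p under 0.1. The fit was tested on simulated data of 23631 features for WK2 against control, and recovered 89 of 100 genes changed 4-fold and 38 of 100 changed 2-fold. The simulated noise was normal, independent between features and of equal spread on all arrays, and the changed genes were brighter than the median. It held no outlying arrays, so this recovery is not the power in the real data.

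The members, the 11 other gene lists and the alternatives were chosen with earlier results of these data known. From each list up to 3 genes of the smallest p in WK2 against control are named, and Omp, Adcy3, Neurog1 and Mki67 always; a further gene of this rule is not reported here. Alternatives were 3 normalizations, array weights, the replicate number as a block, trended robust moderation, probes of a gene averaged, a filter removing the dimmest 25% or 50%, the 2 groups alone, pseudocounts of 500 and 16, an adjusted p under 0.1, each array left out, and control replicate 2 with WK2 replicate 3 left out. Replicate numbers did not pair the samples: the correlation of deviations ran from -0.28 to 0.14 over 9 same-numbered pairs, with 2 over 0.1.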

Additional observations from a re-analysis of the deposited data

How the results depend on the processing

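In WK2 against control, Dpysl5, Crmp1, Ncam1, Dclk1, Gap43, Dcx and Stmn2 lay below control under all 23 alternatives, Dpysl5 from -1.44 to -1.06, and its call held in 12 of them. Many of the 23 leave this difference unchanged and could not turn its direction. They are the dim filters, trended moderation, the block, the 2 groups alone, the 0.1 threshold and omission of a D1 array. Averaging probes likewise changes nothing for a gene of 1 probe, such as Dpysl5. The call of Dpysl5 could not end at the looser threshold of 0.1. The number of members past the threshold was 2 under quantile normalization (with Dclk1), 4 under median centring, without the dimmest 50% of features, with array weights and at an adjusted p under 0.1 (with Crmp1, Ncam1 and Dclk1), and 2 with a pseudocount of 500 (with Dclk1). These settings used the brightest Dclk1 probe. With the probes of a gene averaged, Dclk1 lay at -0.46 (adjusted p = 0.117, limma). The number of members past the threshold was then 1, Dpysl5. This number was 0 with the replicate number as a block, in the fit of the 2 groups compared and without control replicate 2 and WK2 replicate 3 together, and 0 to 2 with single arrays left out. Features past the threshold numbered 1419 (quantile), 1545 (median centring), 682 (cyclic loess), 615 and 1163 (without the dimmest 25% and 50%), 1 (replicate block), 0 (the 2 groups), 2738 (array weights), 777 and 131 (pseudocounts of 500 and 16), 3597 (adjusted p under 0.1) and 0 (both arrays left out), and 1 to 953 with single arrays left out. For WK2 against D1 they numbered, beside 22, 75, 50, 53, 37 (without the dimmest 25%), 8 (block), 2 (the 2 groups), 134 (array weights), 13 (pseudocount of 500), 69 (adjusted p under 0.1) and 2 (both arrays left out), and 1 to 27 with single arrays left out. For D1 against control they were 0 to 1.

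Directions turned for members close to 0. In WK2 against control Gng8 lay at -0.15 with array weights and -0.31 without both arrays (-0.18 to 0.42 with single arrays left out), Dpysl3 at 0.19 and 0.17, and Tubb3 at 0.20 and 0.30 (-0.18 to 0.20). In D1 against control Gap43 lay at 0.031 (quantile) and 0.019 (cyclic loess), with -0.046 to 0.073 for single arrays left out. Crmp1 lay at 0.031, 0.023 and 0.013 (quantile, cyclic loess, array weights; -0.080 to 0.026), Gng8 at -0.0091 (array weights) and -0.022 (both arrays left out; -0.022 to 0.18), Dcx at 0.011 (array weights; -0.16 to 0.038) and Tubb3 at -0.012 (median centring; -0.10 to 0.28). Dpysl3 ran from -0.12 to 0.29 and Stmn2 from -0.19 to 0.044 with single arrays left out. In WK2 against D1 Gng8 lay at -0.10, -0.032, -0.14 and -0.29 (quantile, cyclic loess, array weights, both arrays left out; -0.29 to 0.31), Tubb3 at 0.015 (both left out; -0.17 to 0.015) and Stmn2 ran from -0.28 to 0.079. The filter on dim features and leaving out arrays change the number of tests or samples; the cause of the other changes was not tested.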
